A study of Mus musculus with 9 samples.

Results

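The genes described here are 10 members of the NF-κB pathway, 5 subunits of the transcription factor (Rela, Rel, Relb, Nfkb1 and Nfkb2) and 5 genes that NF-κB is known to induce and whose products feed back on the pathway (Nfkbia, Nfkbie, Bcl3, Tnfaip3 and Traf1). They were found by gene symbol, are 10 of 41128 genes in the count table, and all 10 were among the 14057 genes that passed the filter on low counts. RNA-seq had been performed on mouse lymphomas, with 1 library for each of 3 Bcl6 and 6 Smc3/Bcl6 tumors. Bcl6 tumors were Smc3 wt/wt and Smc3/Bcl6 tumors were Smc3 wt/-, so that the latter would have lost 1 allele of a cohesin core gene. Per the study's methods, all tumors carried Cγ1-Cre, which is active in B cells entering the germinal center, and the IµBcl6 transgene, which keeps Bcl6 expressed in B cells. Mouse ages are not given in the sources used here. The labels name the mesenteric lymph node as the tissue of replicate 1 in both genotypes and only a lymph node for the remaining tumors. The study's text gives the mesenteric lymph node as the source for both genotypes, and whether the labels differ only in wording is not known. The labels do not say that each tumor came from a different animal, so p-values measure the spread between these samples. The comparison of genotypes asks here whether NF-κB genes were expressed at another level when 1 Smc3 allele was deleted.

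NF-κB proteins act as dimers that are held in the cytoplasm by IκB proteins. In the canonical pathway, signals from the B cell receptor, CD40 or TNF receptors lead to degradation of IκB and release of dimers with RelA or c-Rel, whereas in the noncanonical pathway CD40, BAFF receptor or lymphotoxin receptor signals lead to processing of p100 (the Nfkb2 product) and release of dimers with RelB. Released dimers bind κB motifs and induce, among many genes, inhibitors that shut the signal off. In germinal centers the pathway is known to be active mainly in B cells that receive T cell help. Transcript levels of subunits do not measure nuclear NF-κB activity, which is set largely by protein degradation and processing.

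Total counts ranged from 10156728 to 17774577 per library, with a median of 14228612. With edgeR's quasi-likelihood test, 0 genes had a Benjamini-Hochberg adjusted p below 0.05 between genotypes and 79 had an unadjusted p below 0.05, and DESeq2 gave 0 and 209. The study's thresholds, a log2 fold change of more than 0.56 in either direction with an unadjusted p under 0.1, were passed by 302 genes (2.15%) in the edgeR fit. Of these, 180 were higher and 122 lower in Smc3/Bcl6 tumors, and DESeq2 gave 342 higher and 101 lower. The study, which used DESeq2, reported more genes at these thresholds, most of them lower in Smc3/Bcl6 tumors. The reason for the difference was not tested. The level of Smc3 itself was 88.1 to 126 CPM (counts scaled to library size, with edgeR's TMM factors) in the Bcl6 tumors against 27.9 to 111 CPM with the deletion. The log2 fold change was -0.19 (SE 0.38), and 0.01 without Smc3/Bcl6 tumor 2, so that the gene-level counts of Smc3 did not separate the genotypes. The study reported reduced Smc3 expression in these lymphomas, with RT-qPCR on tumors of both genotypes. Its deletion targeted an exon of Smc3, and gene-level counts do not resolve exons. Smc3/Bcl6 tumor 2 stood apart, with a TMM factor of 0.69 against 0.96 to 1.10 in the other tumors, and with low counts of long genes (Spearman -0.47 between the deviation from the other tumors and exon length, over genes, against -0.03 to 0.27 elsewhere). B cell markers (Ms4a1, Cd79a, Cd79b, Pax5 and Cd22) were detected in all 9 tumors, with summed levels of 2073 to 6220 CPM in Bcl6 and 3412 to 7718 CPM in Smc3/Bcl6 tumors. T cell markers (Cd3e, Cd3d, Cd3g, Cd2 and Cd5) had summed levels of 196 to 1683 and 60.0 to 2002 CPM. These are bulk tumors, in which fewer cells of a type and less RNA per cell cannot be told apart.

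On mm10 coordinates (GENCODE M21), the subunit genes were Rela (ENSMUSG00000024927.7, chr19:5637483-5648130, plus strand), Rel (ENSMUSG00000020275.8, chr11:23736847-23770970, minus strand), Relb (ENSMUSG00000002983.11, chr7:19606217-19629438, minus strand), Nfkb1 (ENSMUSG00000028163.12, chr3:135584655-135691547, minus strand) and Nfkb2 (ENSMUSG00000025225.9, chr19:46304320-46312385, plus strand). The feedback genes were Nfkbia (ENSMUSG00000021025.7, chr12:55489410-55492647, minus strand), Nfkbie (ENSMUSG00000023947.7, chr17:45555703-45563169, plus strand), Bcl3 (ENSMUSG00000053175.11, chr7:19808462-19822770, minus strand), Tnfaip3 (ENSMUSG00000019850.6, chr10:19000910-19015657, minus strand) and Traf1 (ENSMUSG00000026875.9, chr2:34941750-34961772, minus strand). RefSeq promoter windows (GRCm38.p6, 250 bases before to 50 after an annotated start) were found for 8 members, in 11 windows, because Nfkb2 and Tnfaip3 have several annotated starts. A match to the 10-base κB consensus on either strand was present in 8 of these 11 windows and in 6 of the 8 members, against 4.51% of 32851 windows and 5.14% of 27025 genes in the table. The looser form GGGNNNNNCC, which includes every consensus match, was present in 10 of the 11 windows against 50.8% of all windows. Rela had the looser form only, and the Traf1 window had neither. One site for each of the 6 members with a consensus match is shown, since these letters are what most members share at their starts, on the gene's strand with the match in capitals.
Rel: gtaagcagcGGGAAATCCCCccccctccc
Nfkb2: gatcgtcacGGGAATTCCCCccctcgggg
Nfkbia: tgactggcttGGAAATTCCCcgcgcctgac
Nfkbie: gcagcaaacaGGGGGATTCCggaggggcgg
Bcl3: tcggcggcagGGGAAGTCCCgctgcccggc
Tnfaip3: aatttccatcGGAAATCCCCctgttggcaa
These stretches lie at chr11:23771042-23771070 (Rel, minus strand), chr19:46304689-46304717 (Nfkb2, plus strand), chr12:55492657-55492686 (Nfkbia, minus strand), chr17:45555584-45555613 (Nfkbie, plus strand), chr7:19822734-19822763 (Bcl3, minus strand) and chr10:19015403-19015432 (Tnfaip3, minus strand). In Rel and Nfkb2 the 11 capital letters hold overlapping matches. Counted from an annotated start, the matches shown begin at -92 in Rel, -39 in Nfkb2, -29 in Nfkbia, -106 in Nfkbie, 2 in Bcl3 and -12 in Tnfaip3. Tnfaip3 had another match at -125, and Nfkb2 had further matches at -11, -236 and 10, each from its nearest annotated start, the last of which lies in overlapping windows and is counted in each. A match of letters is not evidence that NF-κB was bound in these tumors, which was not measured in the counts.

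All members were detected in all 9 tumors, and Nfkbia was the most abundant per length. Levels per length (FPKM, from the longest coding transcript) were 209 ± 72.0 (SD, n = 9) for Nfkbia, which encodes the main inhibitor IκBα, and Nfkbia was above the next gene in 9 of 9 tumors. Nfkbie, encoding IκBε, had 80.0 ± 21.4 FPKM and Bcl3, encoding a nuclear IκB-like coactivator, 74.3 ± 19.7 FPKM (SD, n = 9). These neighbors did not separate, since Nfkbie was the higher of the pair in 4 of 9 tumors. Traf1, an adaptor of TNF receptors, followed with 64.4 ± 20.1 FPKM and Rela, the main transactivating subunit, with 58.6 ± 7.97 FPKM (SD, n = 9), with Traf1 the higher in 6 of 9 tumors. Nfkb2 had 34.4 to 63.7 FPKM and Relb, its usual partner, 19.7 to 63.0 FPKM, with Nfkb2 the higher in 7 of 9 tumors. The lowest levels were those of Tnfaip3, which encodes the deubiquitinase A20, at 27.0 ± 9.19, of Nfkb1, which encodes the p50 precursor, at 20.4 ± 5.08, and of Rel at 6.71 ± 2.22 FPKM (SD, n = 9). By this length, Rel was the lowest of the 10 in all 9 tumors. With the union of all exons as the length, Traf1 fell to 25.1 FPKM, below Rela and Nfkb2. Nfkb1 fell to 6.96 FPKM, next to Rel, and was the higher of the pair in 6 of 9 tumors. The order of the other members was the same.

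None of the 5 subunits differed between genotypes beyond the spread among tumors. RelA and c-Rel are the transactivating subunits of the canonical pathway. Rela was at 140, 161 and 139 CPM in Bcl6 tumors 1, 2 and 3, and at 127 to 191 CPM with a median of 173 in Smc3/Bcl6 tumors. Rel had 55.9, 43.2 and 42.4 CPM in Bcl6 tumors, and ranged from 23.3 (tumor 2) to 80.7 CPM (tumor 4) with a median of 51.0 in Smc3/Bcl6 tumors. The Bcl6 values lay inside the Smc3/Bcl6 range for both genes. The log2 fold change of Rela was 0.18 (SE 0.21, 95% interval -0.30 to 0.65), with p = 0.426 by edgeR and p = 0.238 by exact two-sided permutation of log2 CPM. For Rel the log2 fold change was 0.13 (SE 0.36, interval -0.67 to 0.92), with p = 0.726 by edgeR and an exact permutation p = 0.929. The highest tumor of Rel was at 3.46 times its lowest, Smc3/Bcl6 tumor 2, the library with low counts of long genes. Without tumor 2, the SD of log2 CPM in Smc3/Bcl6 tumors was 0.41 for Rel, against 0.63 with it, and 0.23 for Rela.

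Nfkb1 is processed to p50, the usual partner of RelA and c-Rel, and Nfkb2 and Relb form the noncanonical dimer. Nfkb1 had 98.3, 108 and 57.5 CPM in Bcl6 tumors and from 50.8 (tumor 2) to 103 CPM (tumor 6) with a median of 84.7 in Smc3/Bcl6 tumors. Nfkb2 had 181, 170 and 187 CPM in Bcl6 tumors, a spread of 179 ± 8.86 (SD, n = 3), and from 132 (tumor 1) to 245 CPM (tumor 3) with a median of 211 in Smc3/Bcl6 tumors. Relb had 73.5, 110 and 97.5 CPM in Bcl6 tumors and from 43.5 (tumor 1) to 139 CPM (tumor 2) with a median of 97.2 in Smc3/Bcl6 tumors. For Nfkb2 and Relb the Smc3/Bcl6 tumors reached both below and above every Bcl6 tumor, and for Nfkb1 Bcl6 tumor 2 was the highest of all 9. The log2 fold changes were -0.10 (SE 0.29, exact permutation p = 0.75) for Nfkb1, 0.15 (SE 0.25, p = 0.607) for Nfkb2 and 0.06 (SE 0.36, p = 0.952) for Relb. On the per-length scale, the log2 ratio of Nfkb2 plus Relb over Nfkb1 plus Rela plus Rel was -0.04, 0.04 and 0.39 in Bcl6 tumors, and ranged from -0.42 (tumors 1 and 6) to 0.70 (tumor 2) in Smc3/Bcl6 tumors, with the Bcl6 values inside the Smc3/Bcl6 range.

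The IκB genes of the feedback group also overlapped between genotypes. Nfkbia had 206, 421 and 391 CPM in Bcl6 tumors, and ranged from 192 (tumor 1) to 550 CPM (tumor 2) with a median of 301 in Smc3/Bcl6 tumors. Nfkbie had 266, 193 and 148 CPM in Bcl6 tumors, and ranged from 145 (tumor 4) to 286 CPM (tumor 5) with a median of 179 in Smc3/Bcl6 tumors. In Bcl6 tumors these inhibitors differed in order, since tumor 1 was the lowest for Nfkbia and the highest for Nfkbie. Bcl3 had 140, 192 and 126 CPM in Bcl6 tumors, and ranged from 69.0 (tumor 4) to 187 CPM (tumor 3) with a median of 129 in Smc3/Bcl6 tumors. Tumor 4 lay below all others, the next being at 125 CPM. The log2 fold changes were -0.07 for Nfkbia (SE 0.36, exact permutation p = 0.845), -0.08 for Nfkbie (SE 0.30, p = 0.81) and -0.23 for Bcl3 (SE 0.30, p = 0.333). The value of Bcl3 was -0.05 without Bcl6 tumor 2 and -0.39 without Smc3/Bcl6 tumor 3.

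A20, encoded by Tnfaip3, removes ubiquitin chains that carry the signal to the IκB kinase, and TRAF1 modulates signaling by other TRAF proteins. Tnfaip3 had 79.8, 138 and 195 CPM in Bcl6 tumors, and ranged from 63.7 (tumor 2) to 157 CPM (tumor 3) with a median of 116 in Smc3/Bcl6 tumors. The difference of -0.31 (SE 0.34, 95% interval -1.07 to 0.45) on the log2 scale was the largest in size of the 10 members, with p = 0.382 by edgeR and an exact permutation p = 0.452. Bcl6 tumor 3 alone was above the Smc3/Bcl6 range, and without it the log2 fold change was 0.02. Traf1 had 199, 263 and 232 CPM in Bcl6 tumors, and ranged from 118 (tumor 4) to 363 CPM (tumor 2) with a median of 214 in Smc3/Bcl6 tumors. The log2 difference was -0.10 (SE 0.34, exact permutation p = 0.631), and the Bcl6 values lay inside the Smc3/Bcl6 range.

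**Figure D1:**
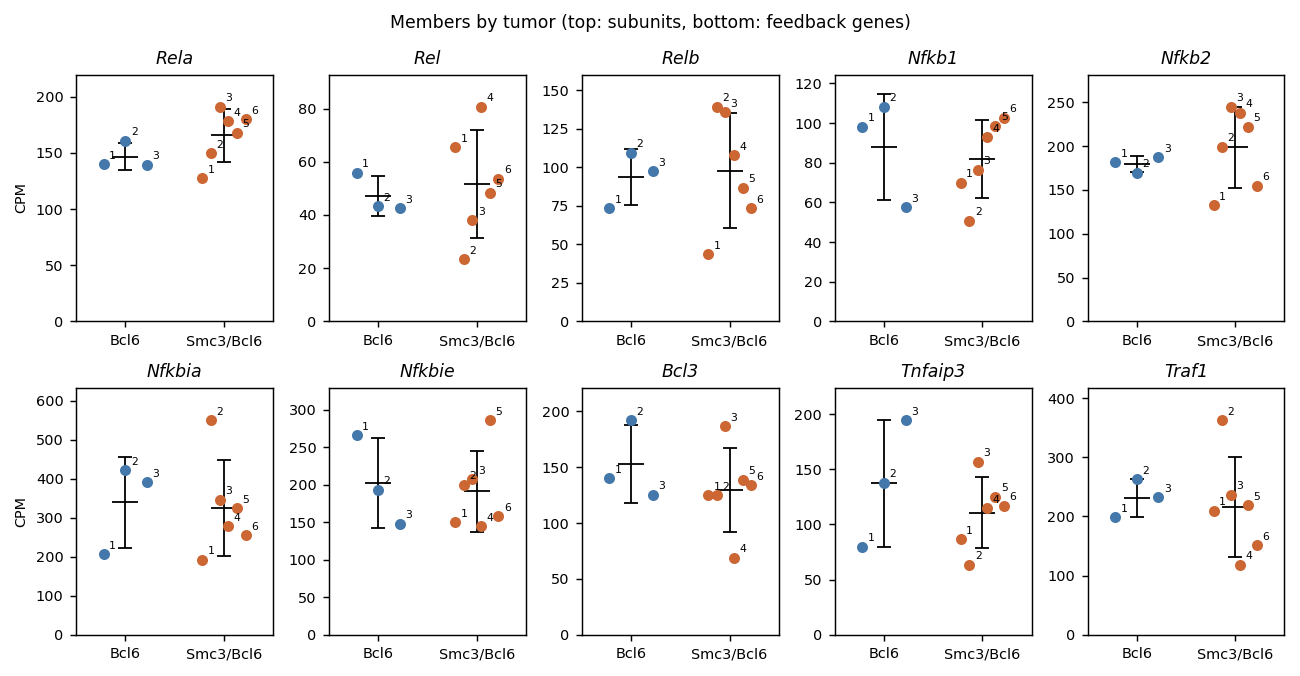
CPM (TMM-scaled, axis from 0) of each member in the 3 Bcl6 and 6 Smc3/Bcl6 tumors, with tumor numbers beside the points and the mean ± SD as bars. The genotypes overlap in every panel, and Smc3/Bcl6 tumor 2 is the lowest for Rel, Nfkb1 and Tnfaip3 and the highest for Relb, Nfkbia and Traf1.

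In all, 0 of the 10 members passed the thresholds in either direction, against 2.15% of all genes tested (1.28% higher and 0.868% lower), and 0 had genotypes that did not overlap, against 0.484% of all genes. The count was also 0 with the replicate number as a block (2.24% of all genes), with limma and quality weights (11.7%) and with an offset for exon length and GC content (2.21%). The adjusted p was 1.00 for each member. The median log2 fold change of the members was -0.07, with 4 positive and 6 negative, against 0.06 over all genes, of which 57.4% were positive. The median absolute value was 0.12 for members and 0.24 for all genes. All 5 feedback genes had negative values (-0.31 to -0.07) and 4 of 5 subunits had positive values (-0.10 to 0.18), but none passed the test, and the signs depended on the setting. Among 20 other settings, all 5 feedback genes were negative in 13, including each other scaling of the libraries, and 8 of the 10 members changed sign in at least 1 setting, with Bcl3 and Nfkb2 the exceptions. The smallest unadjusted p of any member under any setting was 0.069, for Traf1 with limma and a quality weight per tumor. The intervals do not exclude a change of the size of the fold threshold in at least 1 direction for any member, since each reached beyond -0.56 or 0.56.

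**Figure D2:**
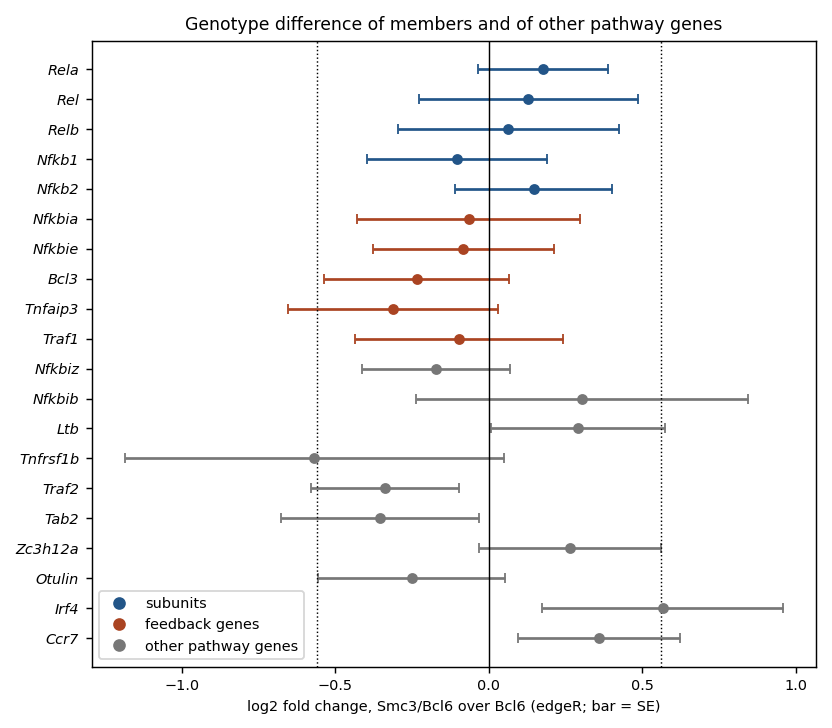
Log2 fold change of Smc3/Bcl6 over Bcl6 from edgeR, with a standard error derived from its F statistic, for the 5 subunits, the 5 feedback genes and 10 other pathway genes, with dotted lines at -0.56 and 0.56. The bars of all 10 members cross 0, and no member lies beyond a dotted line.

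None of the other pathway genes examined passed the thresholds either. Of 57 further genes from receptors to targets, all tested, 0 passed, against 2.15% of all genes tested. Positive log2 fold changes were found in 32 (56.1%), against 57.4% of all genes, and the median was 0.04 against 0.06. The genes named are the pair per list with the smallest edgeR p. Among other IκB genes these were Nfkbiz, which encodes the inducible nuclear protein IκBζ, with a log2 fold change of -0.17 (SE 0.24, exact permutation p = 0.381), and Nfkbib, which encodes IκBβ, with 0.30 (SE 0.54, p = 0.952). Nfkbib had 307 CPM in Smc3/Bcl6 tumor 2 and 55.9 to 93.3 CPM in the other 5 Smc3/Bcl6 tumors, and without tumor 2 its log2 fold change was -0.28. Among 10 receptors and ligands, Ltb, a lymphotoxin subunit, had 0.29 (SE 0.28, exact permutation p = 0.298) and Tnfrsf1b, which encodes TNF receptor 2, -0.57 (SE 0.62, p = 0.571). Tnfrsf1b ranged from 51.2 to 329 CPM without the deletion and from 48.2 to 264 CPM in Smc3/Bcl6 tumors, so that the size of its change was within the spread of either genotype. Its log2 fold change was -1.08 without Bcl6 tumor 1 and -0.0025 without Bcl6 tumor 3.

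Among 25 adaptors and kinases, Traf2, which restrains the noncanonical kinase, had -0.34 (SE 0.24, exact permutation p = 0.131) and Tab2, a subunit of the TAK1 kinase complex, -0.35 (SE 0.32, p = 0.274). Traf2 lay at 97.5 to 138 CPM in the Bcl6 and 71.8 to 123 CPM in the Smc3/Bcl6 tumors. In the group of 6 inhibitors and deubiquitinases, Zc3h12a, an endonuclease that destroys inflammatory mRNAs, had 0.26 (SE 0.30, exact permutation p = 0.476) and Otulin, which cleaves linear ubiquitin chains, -0.25 (SE 0.31, p = 0.345). Among 13 other target genes, Irf4, a transcription factor of plasma cell differentiation that CD40 induces through NF-κB, had 0.57 (SE 0.39, exact permutation p = 0.238), and Ccr7, a chemokine receptor for homing to T cell zones, had 0.36 (SE 0.26, p = 0.19). Irf4 had 113, 46.7 and 58.5 CPM in Bcl6 tumors and from 51.5 (tumor 3) to 158 CPM (tumor 6) with a median of 105 in Smc3/Bcl6 tumors. It passed the thresholds without Bcl6 tumor 1 (0.96), without Smc3/Bcl6 tumor 3 (0.70), with the tissue label as a covariate (0.75) and with quality weights (0.96). Of all genes, 2.50%, 4.51%, 2.29% and 11.7% passed in these settings.

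The 5 feedback genes were next related to the 5 subunits across the 9 tumors, a family of 25 relations on log2 CPM. Each point is 1 library, and both values of a point share its depth and composition. Pearson's r was positive in 16 of 25 with a median of 0.12. By exact permutation, 3 relations had p below 0.05 and 0 had a Benjamini-Hochberg adjusted p below 0.05. The relation of Relb with Nfkbia was positive and, of these 3, varied least with the setting. Nfkbia was at 192 CPM in Smc3/Bcl6 tumor 1, where Relb was lowest at 43.5 CPM, and at 550 CPM in Smc3/Bcl6 tumor 2, where Relb was highest at 139 CPM. The Pearson coefficient was 0.83 (exact permutation p = 0.0049, adjusted p = 0.059) and Spearman's rho was 0.87 (exact permutation p = 0.0045, adjusted p = 0.056). Without these tumors, which were farthest from the median of Relb, r was 0.67. It was 0.79 without Smc3/Bcl6 tumor 2 alone, 0.86 within the 6 Smc3/Bcl6 tumors and 0.81 after a correction for the length of the longest coding transcript and GC content (0.70 with the union of exons as the length). As a description of these libraries, 1.47% of other genes had a correlation with Relb at least as high as that of Nfkbia.

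Rel, in contrast, had negative coefficients with Traf1 and Nfkbia. Rel with Traf1 gave r = -0.89 (exact permutation p = 0.0033, adjusted p = 0.059) and rho = -0.88 (exact permutation p = 0.0031, adjusted p = 0.056). The extremes were Smc3/Bcl6 tumor 2, with 23.3 CPM of Rel and 363 of Traf1, and Smc3/Bcl6 tumor 4, with 80.7 and 118 CPM. Without these tumors, which were also the farthest from the median of Rel, r was -0.56 (exact permutation p = 0.186), so that the relation rests in part on them. It was -0.80 without tumor 2 alone, -0.90 within the 6 Smc3/Bcl6 tumors and -0.18 after the correction by coding transcript length (-0.70 by the union of exons). With that correction and without tumor 2, r was -0.75 (exact permutation p = 0.034, adjusted p = 0.203), so that the value of -0.18 rests on tumor 2. Rel with Nfkbia gave r = -0.81 (exact permutation p = 0.0071, adjusted p = 0.059) and rho = -0.83 (exact permutation p = 0.0083, adjusted p = 0.069), with r = -0.90 without the same pair of tumors, -0.67 without tumor 2 alone, -0.87 within the 6 Smc3/Bcl6 tumors and -0.54 after the correction (-0.38 by the union of exons). Rel with Bcl3 went from -0.50 over 9 tumors to -0.85 without tumor 2 and to -0.87 after the correction (adjusted p = 0.038 by exact permutation), a setting added after the data were seen, whereas the union of exons gave -0.60 (adjusted p = 0.461 by exact permutation). With the coding length correction and without tumor 2, r was -0.84 and the adjusted p by exact permutation was 0.068, no longer past the threshold. Without tumor 2, the coefficients of Rel with the 5 feedback genes lay between -0.85 and -0.35, of which those with Bcl3 and Traf1 had p below 0.05 by exact permutation and none had an adjusted p below 0.05 (smallest 0.130). Over the 9 tumors without correction, Rel was related to many genes. Of other genes, 23.5% had r above 0.6 with Rel and 20.8% below -0.6, against 8.66% and 7.85% for Relb. These shares include tumor 2, where Rel was lowest, and were not computed without it or after the length correction. The other subunits gave no relation with p below 0.05, and the values of Rela with feedback genes lay between -0.33 and 0.37.

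**Figure D3:**
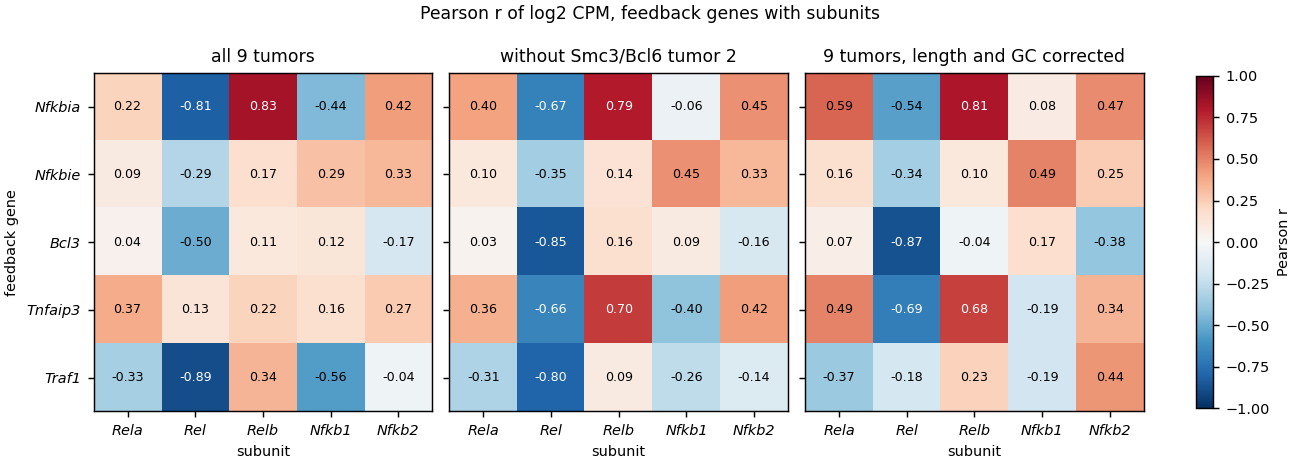
Pearson r of log2 CPM for each feedback gene (rows) with each subunit (columns), over 9 tumors, over 8 without Smc3/Bcl6 tumor 2, and over 9 after correction for the length of the longest coding transcript and GC content. Relb with Nfkbia is at 0.83, 0.79 and 0.81, and Rel with Traf1 at -0.89, -0.80 and -0.18, the last of which was -0.75 when the corrected value was computed without Smc3/Bcl6 tumor 2.

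Smc3/Bcl6 tumor 2 set several of these extremes, low for the members with the longest transcripts and high for some with short ones. Relative to the mean of the other 8 tumors, the long transcripts of Rel, Tnfaip3 and Nfkb1 were lower there by log2 differences of -1.15, -0.93 and -0.76. The short transcripts of Nfkbia and Relb were higher by 0.92 and 0.68. After correction for the length of the longest coding transcript (Rel 7466, Tnfaip3 4422, Nfkb1 4117, Relb 2209 and Nfkbia 1578 bases) and for GC content, the differences were 0.35, -0.12 and -0.16 for Rel, Tnfaip3 and Nfkb1, and -0.05 and 0.30 for Nfkbia and Relb. Traf1, with a transcript of 3436 bases, was at 0.87 before and 1.13 after the correction. Bcl3, with 1850 bases, went from -0.10 to -0.73.

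**Figure D4:**
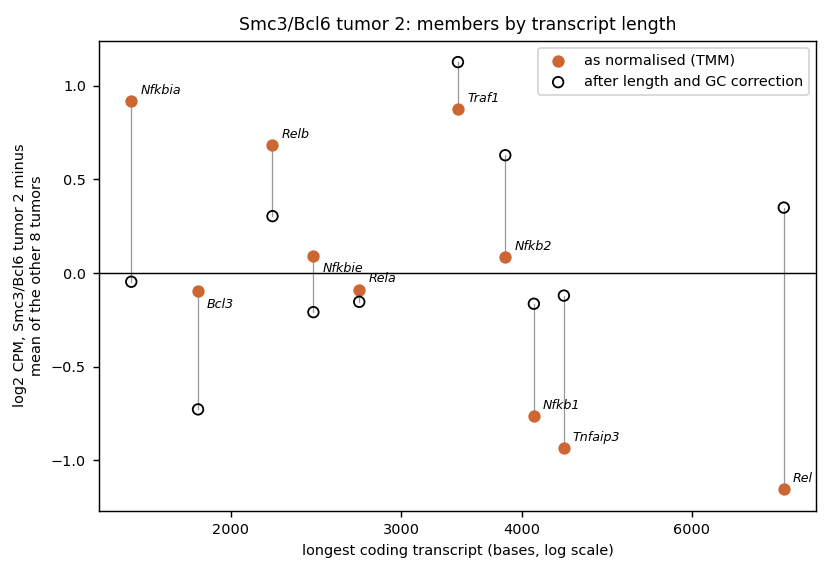
Difference in log2 CPM between Smc3/Bcl6 tumor 2 and the mean of the other 8 tumors for each member against the length of its longest coding transcript in bases (log axis), as normalised (filled) and after correction for length and GC content (open). Rel moves from -1.15 to 0.35 and Nfkbia from 0.92 to -0.05, whereas Traf1 stays high at 0.87 and 1.13.

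Members of each class were also related among themselves, a family of 20 pairs that was added after the data were seen, and 0 had an adjusted p below 0.05. Relb and Nfkb2, partners in the noncanonical dimer, gave r = 0.77 (exact permutation p = 0.014, adjusted p = 0.287) and rho = 0.67 (exact permutation p = 0.059, adjusted p = 0.393). Without the tumors farthest from the median of Relb, r was 0.63. Without Smc3/Bcl6 tumor 2 it was 0.81. Among feedback genes, Nfkbia with Nfkbie gave r = 0.07 (0.02 without tumor 2). Nfkbia with Traf1 gave r = 0.65 (exact permutation p = 0.054, adjusted p = 0.329), 0.43 without tumor 2 and 0.23 after the coding length correction. Nfkbia with Tnfaip3 gave r = 0.17, 0.90 without tumor 2 (exact permutation p = 0.0035, adjusted p = 0.070) and 0.93 after the correction. The differences between these coefficients were not tested. The genes most like the mean of the 5 feedback genes, by the lower of r over 9 and over 8 tumors, were Atcay (0.98), Atp1b3 (0.96), Esm1 (0.96), 6330403K07Rik (0.96) and Procr (0.96). Of these, Atp1b3, a subunit of the sodium pump, was well expressed, at a mean log2 CPM of 8.04, whereas Atcay and 6330403K07Rik were near 0 (0.16 and -0.08). These are the highest of all genes tested by construction and are a description only.

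Members were also set beside markers of cell types across the tumors, in 80 relations computed after the data were seen (10 members with 8 marker lists). Of these, 16 had p below 0.05 by exact permutation and 0 had an adjusted p below 0.05. T cell markers split the tumors into 4 with mean log2 CPM of 7.83 to 8.21 (Bcl6 tumors 2 and 3 and Smc3/Bcl6 tumors 2 and 3), 4 with 2.69 to 4.55 and 1 at 6.52 (Smc3/Bcl6 tumor 5). Because of this split, a coefficient with them does not show a graded relation. Nfkbia gave r = 0.91 with these markers (exact permutation p = 8.1e-04, adjusted p = 0.065), the smallest p of the 80. That r was 0.86 without Smc3/Bcl6 tumors 1 and 6, the farthest from the median of the markers. Relb gave r = 0.83 (exact permutation p = 0.0029, adjusted p = 0.116) and Rel r = -0.78 (exact permutation p = 0.0064, adjusted p = 0.128). After the length and GC correction, r was 0.79 for Nfkbia and Relb and -0.53 for Rel. The 4 tumors with high T cell markers had the 4 highest values of Nfkbia, 421, 391, 550 and 346 CPM, and the other 5 had 192 to 324 CPM. None of the T cell markers was at 0 in any tumor, and 0 of 5 passed the thresholds between genotypes. Rel with the mean of B cell markers gave r = 0.83 (exact permutation p = 0.0047, adjusted p = 0.127) and rho = 0.90 (exact permutation p = 0.0020, adjusted p = 0.081), and r = 0.90 without Bcl6 tumor 3 and Smc3/Bcl6 tumor 4, the farthest from the median of the markers. After the length and GC correction of Rel the value was 0.51. Relb with dendritic cell markers (Itgax, Flt3, Zbtb46 and Xcr1) gave r = 0.80 (exact permutation p = 0.0093, adjusted p = 0.134) and rho = 0.68 (exact permutation p = 0.050, adjusted p = 0.310). Without Smc3/Bcl6 tumors 1 and 3, the farthest from the median of these markers, r was 0.44. Without tumor 2 it was 0.95 (exact permutation p = 4.0e-04, adjusted p = 0.032). Dendritic cell markers had summed levels of 29.0 to 135 CPM in Bcl6 and 18.3 to 158 CPM in Smc3/Bcl6 tumors, with 0 of 4 past the thresholds and none at 0. Relb with macrophage markers (Csf1r, Cd68, Adgre1, C1qa, C1qb, C1qc and Mertk) gave a like coefficient, r = 0.82 (exact permutation p = 0.010, adjusted p = 0.134), with rho = 0.53 (exact permutation p = 0.148, adjusted p = 0.562) and r = 0.19 without Bcl6 tumor 1 and Smc3/Bcl6 tumor 1, the farthest from the median of these markers. Macrophage markers had summed levels of 314 to 2502 CPM in Bcl6 and 150 to 3000 CPM in Smc3/Bcl6 tumors, with 0 of 7 past the thresholds and none at 0. Other marker lists did hold calls between genotypes. With the deletion, 2 of 5 erythroid markers passed as higher and 1 of 4 neutrophil markers as lower, against 2.15% of all genes in either direction. Relb was at 97.5 to 139 CPM in the 4 tumors with high T cell markers and at 43.5 to 108 CPM in the other 5. Without tumor 2, r of Relb was 0.80 with T cell and 0.85 with macrophage markers. The differences between the coefficients of Relb with these marker lists were not tested. Nfkbia with B cell markers gave r = -0.78 (exact permutation p = 0.013, adjusted p = 0.135), rho = -0.83 (exact permutation p = 0.0083, adjusted p = 0.094) and r = -0.57 after the correction. Traf1, opposite in sign to Rel, gave r = -0.78 with B cell markers (exact permutation p = 0.013, adjusted p = 0.135) and -0.79 after the correction. With T cell markers Traf1 gave r = 0.69 (exact permutation p = 0.031, adjusted p = 0.209) and 0.73 after the correction. The tumors labeled mesenteric lymph node, replicate 1 of Bcl6 and of Smc3/Bcl6, had the lowest macrophage means (5.19 and 3.59 log2 CPM). Their dendritic cell means were also the lowest (2.78 and 1.83). Each was the lowest of its genotype for Relb (73.5 and 43.5 CPM) and Nfkbia (206 and 192 CPM). The part of T cells, B cells, dendritic cells or macrophages in the levels of Nfkbia, Rel, Relb and Traf1 was not tested. Nor was their part, or that of the tissue label, in the relations among these genes.

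**Figure D5:**
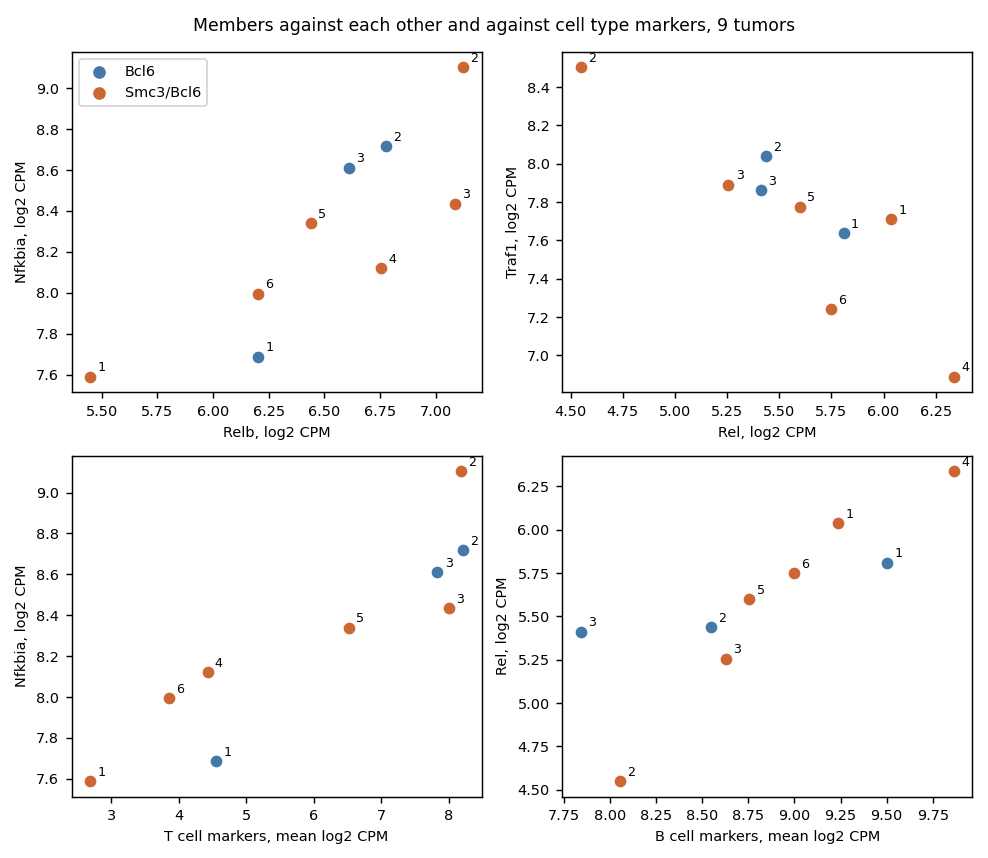
Log2 CPM of Nfkbia against Relb and of Traf1 against Rel, and of Nfkbia and Rel against the mean log2 CPM of T cell and of B cell markers, 1 point per tumor with its number, colored by genotype. Both genotypes are spread along each plot, and Smc3/Bcl6 tumor 2 has the lowest Rel and the highest Nfkbia and Traf1.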

How the data were processed

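RNA-seq gene counts of 3 Bcl6 and 6 Smc3/Bcl6 tumors were analyzed. The authors aligned reads to mm10 with STAR, used featureCounts to obtain gene counts, and deposited these counts unnormalized. Whether strand was used in counting is not given in the sources used here, so reads of overlapping antisense genes could not be separated. The table held 0 columns without a sample. The genotype comparison used the quasi-likelihood test of edgeR 4.0.16 (R 4.3.3) on all genes kept by its low-count filter, with TMM factors, and had DESeq2 1.42.0, limma 3.58.1 and the settings of the closing section as alternatives. Log2 CPM used a prior count of 2. Exact permutation used the 84 ways to split 9 tumors into genotypes (smallest two-sided p 0.0238), or all pairings for correlations. Gene lengths and GC content came from GENCODE M21 (97.9% of genes), and the correction used lowess with a span of 0.3. Members and lists were chosen with earlier results of these data known. Genes named are all members, the 2 smallest p-values per pathway list (where none passed), the 5 genes most like the feedback genes, and Smc3. The replicate number, known only from the labels, was taken as a pairing in an alternative over replicates 1 to 3. Deviations of same-numbered tumors had r of 0.44, 0.11 and 0.16 over genes for replicates 1, 2 and 3. Differently numbered tumors were not compared, so these values do not show that the numbers mark a pairing. Scripts were tested on simulated data. One listed marker gene is not reported here and was left out of its list.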

Additional observations from a re-analysis of the deposited data

Results flagged for a closer look

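In the 6 Smc3/Bcl6 tumors, 3 of 29 values examined (the members, the named pathway genes, Smc3 and the marker lists) had 1 tumor far from the others, with a gap to the nearest tumor past Dixon's 95% critical share of the range, and chance gives about 1 in 20 such values. None was a member. Nfkbib had its highest value in tumor 2, with a gap of 0.70 of the range. Smc3 had its lowest value in tumor 2, with a gap of 0.85. Macrophage markers had their lowest mean in tumor 1, with a gap of 0.82. T cell and dendritic cell markers, and the members Rela, Relb, Nfkb2 and Nfkbia, also had their lowest values in that tumor.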

How the results depend on the processing

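The count of 0 members past the thresholds was the same in all settings run. For the 57 other pathway genes, the count was 8 with limma and quality weights (where 11.7% of all genes passed) and 1 with the tissue label as a covariate (2.29%). It was 0 to 2 with 1 tumor left out. Irf4 passed without Bcl6 tumor 1 (2.50% of all genes), and Irf4 and Cd40lg without Smc3/Bcl6 tumor 3 (4.51% of all genes). Of the 25 relations, 2 passed with DESeq2 size factors (Nfkbia with Relb, Traf1 with Rel), 1 after correction by coding transcript length and GC content, and 0 to 1 with a tumor left out (Traf1 with Rel without Smc3/Bcl6 tumor 1, Nfkbia with Rel without Smc3/Bcl6 tumor 4). Log2 fold changes changed sign in 16 of 220 values. For Relb they were -0.023 with limma, -0.32 with quality weights, -0.065 with library totals only, -0.15 with the tissue label and -0.036 with the coding length offset, for Nfkbib -0.26 with quality weights, and for Traf1 0.13 with the exon length and GC offset. With tumors paired by replicate number as a block, they were -0.30 for Rel, -0.0063 for Relb, 0.0046 for Nfkbia and 0.16 for Traf1, and with block and offset -0.090 for Rela, -0.034 for Relb, 0.40 for Traf1, -0.015 for Ltb and -0.10 for Zc3h12a. The block changed no call. With 1 tumor left out, values ranged from -0.34 to 0.079 for Nfkb1, -0.40 to 0.059 for Nfkbia, -0.28 to 0.41 for Nfkbib, -0.27 to 0.11 for Nfkbie, -0.046 to 0.29 for Rel, -0.15 to 0.22 for Relb and -0.65 to 0.023 for Tnfaip3. The cause of these changes was not tested. The member with the fewest counts, Rel, had 6404 over the 9 libraries, and whether depth or the number of tumors limits these comparisons more was not tested.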
